A study of Delphinapterus leucas with 24 samples.

Results

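Blood RNA of beluga whales (Delphinapterus leucas), a toothed whale of Arctic and subarctic coasts, was compared between the summers of 2013 and 2014 in Bristol Bay, Alaska. The comparison used 16 of the 24 libraries in the series, all 8 labelled 2013 and all 8 labelled 2014. The 8 libraries of 2012, sampled from 1 to 12 September, served as a reference level and entered 1 alternative fit. The seasons of 2013 and 2014 were chosen because their calendar dates overlapped, the first running over 23 to 30 August and the second over 25 August to 3 September. The year 2012 was also left out because earlier results of these data had shown 1 of its libraries to stand apart. The 2013 group held 4 females and 4 males, and the 2014 group held 2 females and 6 males. All were free-living animals, no treatment is recorded, and neither age nor repeat sampling of an animal is stated in the labels. The p-values therefore speak of the spread among these libraries.

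Whole blood RNA comes from white cells, platelets and those young red cells that still carry messenger RNA. Mature red cells of mammals have lost their nucleus and most of their RNA, so the makeup of a blood sample can move many transcripts together. In bulk blood, fewer cells of a type and less RNA per cell cannot be told apart. In summer, belugas gather in estuaries and river mouths, where they feed on migrating fish.

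Levels are given as TPM, transcripts per 1000000, which corrects for transcript length but does not record how deeply a library was sequenced, so depth is unknown. Transcripts had been assembled without a genome, and those assigned to the same Entrez Gene ID, the gene number of the NCBI database, were summed. Of 45872 listed features, 14079 carried such an ID, and they gave 9855 distinct IDs. Of these, 2821 IDs were sums of at least 2 features and 7034 rested on 1. The files do not pair IDs with gene names, so genes are given by number and without a function. At most 2 IDs per direction are named. For the same reason the label of blood could not be checked against marker genes. In each library, features with an ID made up 62.8% to 82.4% of all TPM. Libraries were brought to a common scale by the median ratio over IDs, and a value on that scale is called scaled TPM.

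No gene was called different between the years, although more than 1 in 20 lay under the unadjusted threshold. Of 9797 IDs tested with sex in the model, 0 passed at an adjusted p under 0.05 (limma, Benjamini-Hochberg), which is 0% called. The smallest adjusted p was 0.112. At an unadjusted p under 0.05 there were 1728 IDs, or 17.6%, with 836 higher in 2014 (8.53%) and 892 lower (9.1%). limma without its variance trend also gave 0 calls, with 1658 IDs at an unadjusted p under 0.05.

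Differences were small for nearly every gene. The median difference, 2014 minus 2013, was 0.01 on the log2(TPM + 1) scale, and the middle 90% of IDs lay between -0.35 and 0.31. A difference larger than 1, a doubling or halving on that scale, was estimated for 6 IDs, 5 of them higher in 2014. The median standard error of an ID was 0.12. For 9587 IDs (97.9%) the 95% interval of the difference lay within 1 of 0, and for 7001 (71.5%) it lay within 0.5. These intervals are not adjusted for the number of IDs, and low levels understate a change on this scale. Within a year the median standard deviation of an ID was 0.22 in 2013 and 0.22 in 2014 on the same scale.

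The balance of directions differed by level. Among the 25% of IDs with the lowest mean TPM, 85 were higher and 222 lower in 2014 at an unadjusted p under 0.05. Among the 25% with the highest mean TPM, 306 were higher and 171 lower. The median difference moved from -0.02 in the lowest group to 0.04 in the highest. This contrast between levels was not tested, and genes are not independent of each other.

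**Figure D1:**
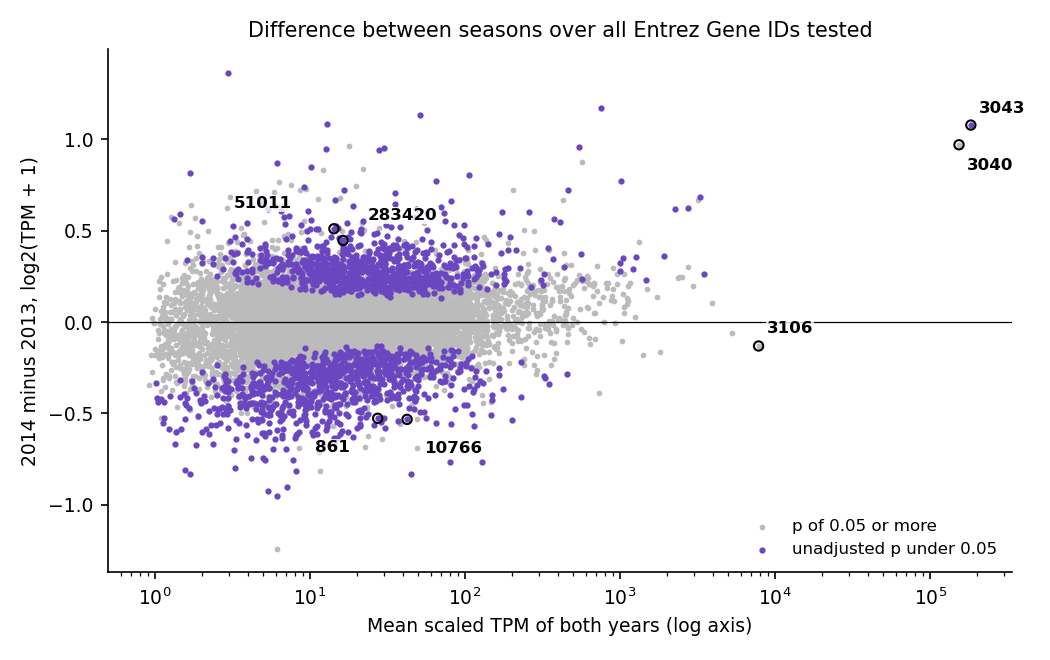
Each point is 1 of the 9797 Entrez Gene IDs tested, with its mean scaled TPM over both years on a log axis and its difference, 2014 minus 2013, on the log2(TPM + 1) scale. Purple points have an unadjusted p under 0.05, circles mark the 4 IDs of smallest p and the 3 most abundant IDs, and 6 points lie beyond 1 in either direction.

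The smallest p belonged to Entrez Gene ID 861, which was lower in every library of 2014 than in any of 2013. In 2013 its scaled TPM was 26.1 at the lowest, 32.4 at the median and 41.4 at the highest. In 2014 it was 19.2, 21.8 and 24.5. The 8 libraries of 2014 therefore lay below all 8 of 2013, and they were also more alike, with an SD of 2.02 against 5.71. The difference was -0.53 ± 0.09 (SE, 95% interval -0.72 to -0.33) on the log2(TPM + 1) scale. In limma the unadjusted p was 1.68e-05, and the p adjusted over all IDs was 0.112.

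This ID was the sum of 4 assembled features, and all 4 had a lower mean in 2014. The largest, TR37440|c0_g2, averaged 12.3 ± 2.85 scaled TPM in 2013 and 7.67 ± 0.705 in 2014 (SD, n = 8 each). TR13757|c0_g1 averaged 9.75 and 6.93, TR6172|c0_g2 averaged 6.91 and 4.20, and TR6172|c0_g1 averaged 4.14 and 2.82 scaled TPM. The features kept similar shares of the ID, with 37.1% and 35.5% in the largest. Features of 1 ID share their source and are not replicates.

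Entrez Gene ID 10766 was the other of the lower pair. Its scaled TPM in 2013 was 40.2 at the lowest, 49.0 at the median and 71.0 at the highest, and in 2014 it was 28.3, 34.9 and 39.6. Again every library of 2014 lay below every library of 2013, although the lowest of 2013 and the highest of 2014 were close. The difference was -0.53 ± 0.11 (SE) on the log2(TPM + 1) scale, limma's adjusted p being 0.112. The highest value of 2013 stood apart, and without that library, 2013 replicate 2, the difference was -0.44. Its main features, TR10181|c0_g1 and TR34564|c0_g2, averaged 24.9 and 23.1 scaled TPM in 2013 and 16.9 and 16.1 in 2014.

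Both IDs of smallest p on the higher side overlapped between the years. Entrez Gene ID 51011, measured by 1 feature, was at 7.46, 12.2 and 14.7 scaled TPM (lowest, median, highest) in 2013 and at 13.4, 16.2 and 19.7 in 2014. Of the 8 libraries of 2014, 5 lay above the highest of 2013. The difference was 0.51 ± 0.10 (SE) on the log2(TPM + 1) scale, with an adjusted p of 0.112 in limma.

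Entrez Gene ID 283420 was at 11.6, 13.3 and 17.8 scaled TPM in 2013 and at 16.4, 19.0 and 21.7 in 2014. Here 6 libraries of 2014 lay above all of 2013, and 7 of 2013 below all of 2014. The difference was 0.45 ± 0.09 (SE) on the log2(TPM + 1) scale (adjusted p = 0.112 in limma). Its 4 features did not move alike. TR37350|c0_g2 averaged 3.67 ± 1.33 scaled TPM in 2013 and 6.37 ± 1.87 in 2014, whereas TR33067|c0_g1 averaged 3.14 ± 1.04 and 2.98 ± 0.702 (SD, n = 8 each).

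The 2012 libraries put these levels in a longer series. On the same scale, Entrez Gene ID 861 averaged 34.0 ± 4.61 TPM in 2012, beside 33.1 ± 5.71 in 2013 and 21.6 ± 2.02 in 2014 (SD, n = 8 each). Entrez Gene ID 10766 averaged 45.3 ± 9.45, 50.3 ± 9.95 and 34.3 ± 3.52 scaled TPM in the same order. Entrez Gene ID 283420 averaged 13.6 ± 2.42, 13.8 ± 2.05 and 18.9 ± 1.80, and Entrez Gene ID 51011 averaged 14.7 ± 4.21, 12.1 ± 2.45 and 16.4 ± 2.51. For the first 3 of these the means of 2012 and 2013 were closer to each other than either was to 2014. For 51011 the spread of 2012, from 8.82 to 23.5 scaled TPM, covered the range of 2014 only through replicate 1 of 2012. The next highest library of 2012 was at 17.2, below the highest of 2014 at 19.7. The IDs were chosen on 2014 against 2013, so the 2012 levels are a description.

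**Figure D2:**
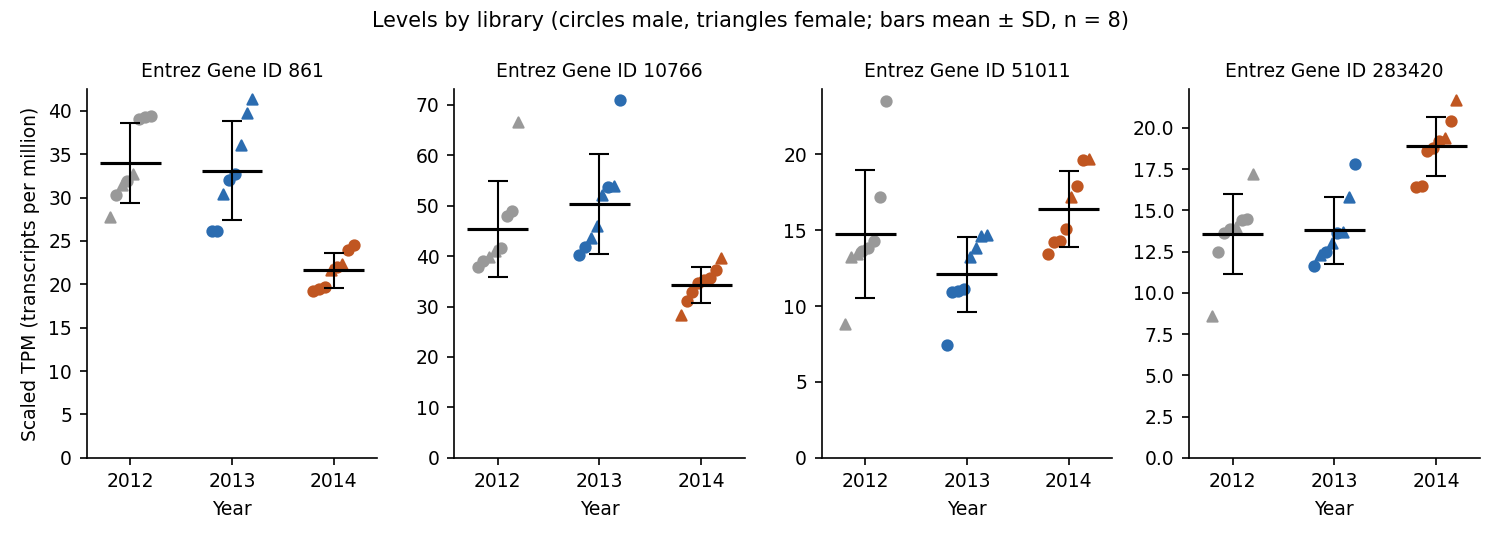
Scaled TPM of the 4 Entrez Gene IDs named for their smallest p, 2 in each direction, for every library of 2012, 2013 and 2014 (circles male, triangles female, bars mean ± SD of 8 libraries). IDs 861 and 10766 are lower in all 8 libraries of 2014 than in all 8 of 2013, and IDs 51011 and 283420 overlap between these years.

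Over all IDs tested, complete separation of the years was rare. In 7 IDs (0.0715%) every library of 2014 lay above every library of 2013, and in 8 IDs (0.0817%) every library of 2014 lay below. None of these 15 passed the adjusted threshold, and 861 had the smallest adjusted p among them, 0.112, a value it shared with others.

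The most abundant transcripts varied widely between libraries of the same year. Entrez Gene ID 3043 was at 26700, 137000 and 337000 scaled TPM (lowest, median, highest) in 2013 and at 101000, 167000 and 510000 in 2014. In 2013, 3 libraries lay below all of 2014, and in 2014, 1 library lay above all of 2013, so the groups overlapped widely. Its difference was 1.08 ± 0.51 (SE, 95% interval -0.02 to 2.17) on the log2(TPM + 1) scale, and it was among the 6 IDs beyond 1. In limma its unadjusted p was 0.0474 and its adjusted p 0.281. The interval reaches past 0 because it uses fewer degrees of freedom than limma's p.

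Entrez Gene ID 3040 moved with it from library to library. It was at 27200, 119000 and 277000 scaled TPM in 2013 and at 83800, 155000 and 335000 in 2014, and limma gave 0.97 ± 0.47 for the difference (SE, adjusted p = 0.290). Entrez Gene ID 3106, the next in abundance, stayed in a narrow range, with 6990 to 9750 scaled TPM in 2013 and 6170 to 9160 in 2014 (difference -0.13 ± 0.12, adjusted p = 0.593 in limma). Together the 3 IDs took 27.0% ± 14.7 of the TPM of a library in 2013 and 34.9% ± 11.4 in 2014 (SD, n = 8 each). The difference of 7.89 percentage points was within the spread between libraries (two-sided exact permutation p = 0.248, adjusted p = 0.372 over 3 library measures), and it was 5.06 without 2014 replicate 6. The other measures, the scaling factor and the number of IDs listed at 0, had exact permutation p-values of 0.128 and 0.575.

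Among the 16 libraries the lowest levels of the 2 leading IDs came from late August 2013, and 2012 reached lower, to 8530 scaled TPM for 3043 and 8890 for 3040. Of the libraries of 28 August 2013, one listed Entrez Gene ID 3043 at 29300 and the other at 26700 scaled TPM. Those of 30 August 2013 listed it at 56400 and 170000. The libraries of 23 and 24 August 2013 lay between 103000 and 337000 scaled TPM. In 2014 the libraries of 28 August listed 101000 and 510000, the lowest and the highest of that year.

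**Figure D3:**
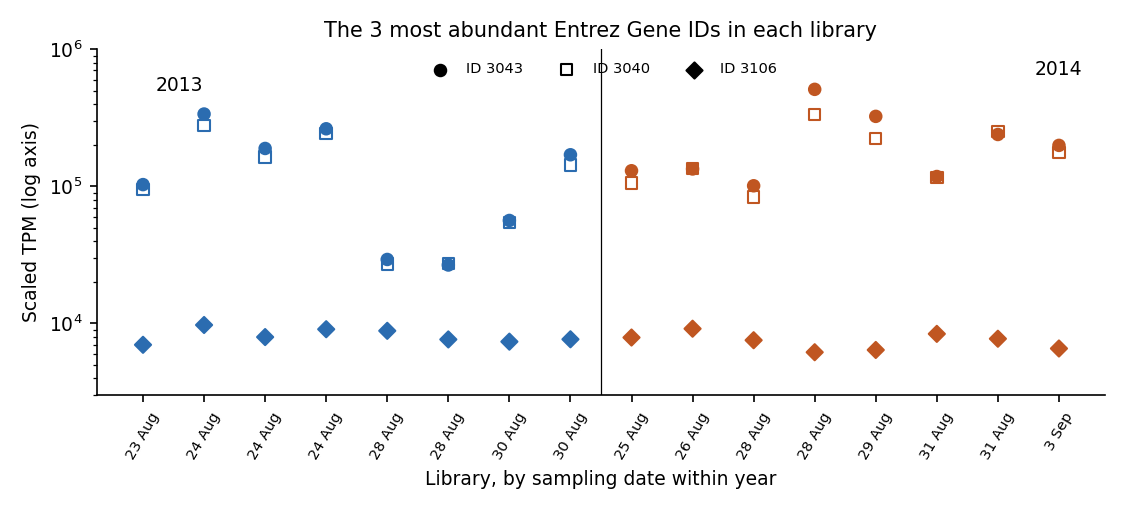
Scaled TPM, on a log axis, of the 3 most abundant Entrez Gene IDs in each library, ordered by sampling date within each year. IDs 3043 and 3040 run together and range from 26700 to 510000 and from 27200 to 335000, whereas ID 3106 stays between 6170 and 9750.

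Over all IDs, the years differed in their mean along one direction of variation, with overlapping ranges. The second principal component of the 16 libraries, which held 19.6% of the variance over the tested IDs, averaged -8.85 ± 10.4 in 2013 and 8.85 ± 9.92 in 2014 (SD, n = 8 each). The difference of 17.7 passed a two-sided exact permutation test (p = 0.00528, adjusted p = 0.0159 over 3 components), which has no term for sex. In males alone, 4 against 6, it was 16.8 (exact permutation p = 0.0286, not adjusted). The first component, with 24.3% of the variance, did not differ beyond its spread (exact permutation p = 0.838), nor did the third, with 11.5% (exact permutation p = 0.648). The sign of a component is arbitrary and was set so that 2014 is higher. Pairs of libraries from the same year had a median Spearman correlation of 0.971 over IDs and pairs from different years 0.965, which describes their likeness only.

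Between 25 and 30 August the 4 libraries of 2013 scored -18.2 to -9.57 on that component and the 5 of 2014 scored 6.57 to 24.3, with no overlap. Those of 2013 were 2 males and 2 females and those of 2014 were 4 males and 1 female, and the scores were not adjusted for sex. Within this window the libraries of 2013 came from 28 and 30 August and those of 2014 from 25 to 29 August, so only 28 August occurs in both years and those of 2013 were on the whole later. The score tended to be lower on later days in both years, with the correlations given in this paragraph, so this offset of dates runs in the direction of the gap, and its part was not tested. The 4 libraries of 23 and 24 August 2013 spread from -17.1 to 8.42. The 3 libraries from 31 August to 3 September 2014 lay between -5.31 and 3.42, in the gap between the years seen from 25 to 30 August. Within 2013 the score and the day of the year had a Pearson r of -0.63 (exact permutation p = 0.0917) and a Spearman rho of -0.64 (exact permutation p = 0.0917) over 8 libraries. Within 2014 the values were -0.76 (exact permutation p = 0.0262) and -0.78 (exact permutation p = 0.0262). Adjusted over 6 such relations the Pearson p-values were 0.275 and 0.157 (exact permutation), so neither passed. Without the 2 libraries farthest from the median date r was -0.67 in 2013 and -0.43 in 2014, and in 2014 the relation rests on those libraries.

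**Figure D4:**
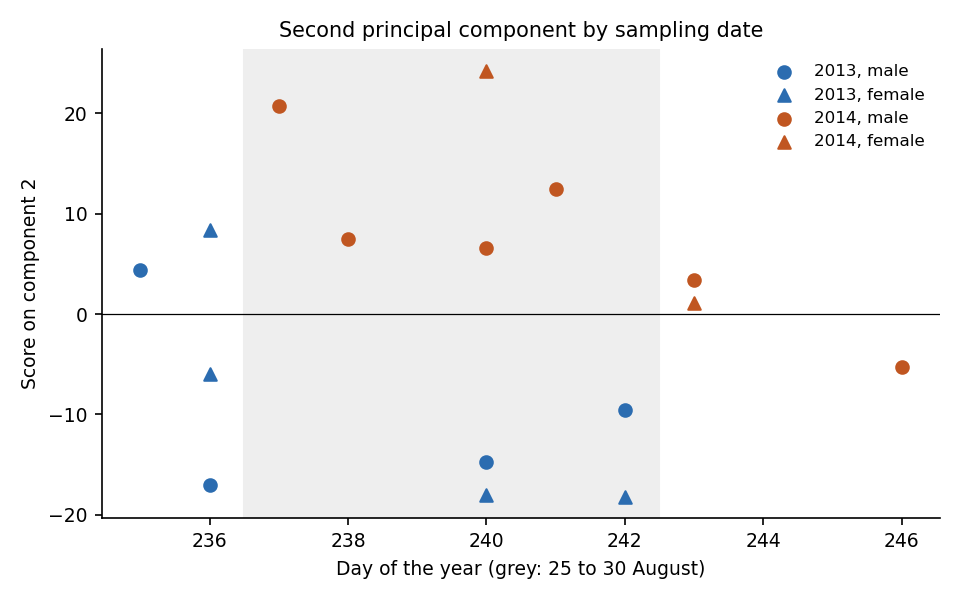
Score of each library on the second principal component against its day of the year, by year (colour) and sex (circles male, triangles female). In the grey band of 25 to 30 August the libraries of 2013 score -18.2 to -9.57 and those of 2014 score 6.57 to 24.3, whereas the earlier libraries of 2013 and the later ones of 2014 lie closer together.

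Taking the date into account gave calls where the plain comparison gave none. When the day of the year was a covariate, 635 IDs (6.48%) were called in limma, 254 higher and 381 lower in 2014. All 635 had the same sign in the fit without the day, and 570 had an unadjusted p under 0.05 there. Both fits use the same 16 libraries, so this likeness is no independent support. The median size of their differences was 0.45 on the log2(TPM + 1) scale. The day term itself gave 0 calls in limma, with 1263 IDs at an unadjusted p under 0.05.

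In that fit all 4 named IDs passed. Entrez Gene ID 861 differed by -0.62 ± 0.09 (SE, adjusted p = 0.00958 in limma) and 10766 by -0.52 ± 0.12 (adjusted p = 0.0277 in limma). Entrez Gene ID 51011 differed by 0.50 ± 0.11 (adjusted p = 0.0247 in limma) and 283420 by 0.39 ± 0.10 (adjusted p = 0.0323 in limma), all on the log2(TPM + 1) scale. They were named for their small p in the fit without the day on the same libraries, so these values are no independent support. With any 1 library left out of this fit, 861 still passed. The others each missed the threshold in some of these fits. Without 2013 replicate 10 the adjusted p in limma was 0.0786 for 10766, 0.0613 for 51011 and 0.0885 for 283420.

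A smaller fit was limited to 25 to 30 August and had no day term. It kept the term for sex, with 2 males and 2 females of 2013 and 4 males and 1 female of 2014. Among its 9 libraries, 4 of 2013 and 5 of 2014, with 6 residual degrees of freedom and only 28 August common to both years, 459 IDs (4.69%) were called in limma, 209 higher and 250 lower in 2014. Of these, 292 were also called with the day as a covariate, which is 63.6% of the calls of 25 to 30 August and 46.1% of the calls with the day term. Both fits use these 9 libraries, so the overlap is no repetition of the result. With scaling factors computed anew over these 9 libraries, Entrez Gene ID 861 was at 33.9 to 44.0 TPM in those of 2013 and at 20.4 to 25.5 in those of 2014, and limma gave -0.70 ± 0.10 (SE, adjusted p = 0.0342). Entrez Gene ID 51011 also passed (0.43 ± 0.11, adjusted p = 0.0487 in limma), whereas 10766 (-0.42 ± 0.11, adjusted p = 0.0510) and 283420 (0.31 ± 0.12, adjusted p = 0.141) did not. When 1 of these 9 libraries was left out, 51011 passed only without 2014 replicate 3 (adjusted p = 0.0277 in limma). Entrez Gene ID 861 passed without 2013 replicate 7 or 2014 replicates 3, 5 or 7 and in no other such fit.

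Both counts changed strongly when single libraries were left out. With day of the year, leaving out 1 library gave 16 to 908 calls. The count moved by over 1.5 times to 381, 199 and 16 without 2013 replicates 7, 8 and 10, and to 79, 350, 183, 389, 357 and 400 without 2014 replicates 1, 5, 6, 7, 8 and 10. For 25 to 30 August the range was 0 to 1540. It gave 0 calls without 2013 replicates 8, 9 or 10 or without 2014 replicates 1 or 6, then 59 without 2013 replicate 7, 86 without 2014 replicate 5, 346 without 2014 replicate 7 and 1540 without 2014 replicate 3.

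The 3 most abundant IDs took 8.72% to 34.7% of TPM in the 4 libraries of 2013 between these dates and 22% to 54.7% in the 5 of 2014. With the log2 of that share also in the model, the calls with day of the year fell to 238, or 2.43%, with 56 higher and 182 lower. In that fit all 4 named IDs passed, with adjusted p between 0.0276 and 0.0449 in limma. The calls of 25 to 30 August went to 0 in limma, with 1004 IDs at an unadjusted p under 0.05. There the named IDs had adjusted p between 0.443 and 0.641, while their differences were -0.59 for 861, -0.55 for 10766, 0.38 for 51011 and 0.27 for 283420 on the log2(TPM + 1) scale. The part of the share in these counts was not tested.

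All 24 libraries in 1 fit gave 2 calls (0.0203%), both lower in 2014, and 861 was one of them (-0.56, adjusted p = 0.0308 in limma). Weighting libraries by their scatter gave 172 calls (1.76%), 62 higher and 110 lower, and leaving out 2013 replicate 4 gave 112 (1.14%).

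Sex and place also differed between the groups. The males alone, 4 against 6, gave 1 call, lower in 2014 (0.0102%), and Entrez Gene ID 861 differed by -0.43 there (adjusted p = 0.368 in limma). The recorded latitude began with 58, the southern sites, in 1 library of 2013 and 4 of 2014. Without them 0 IDs were called in limma, with 1164 at an unadjusted p under 0.05. That fit kept 2 libraries of 2014 recorded at latitudes 50.052923 and 50.052828. Their recorded longitudes lie within the range of the other libraries, so these latitudes may be recording errors. In 2014 the libraries of 31 August and 3 September all came from southern sites. The only other southern library of that year was replicate 6, of 28 August. With 1 earlier southern library, late date and place cannot be told apart in 2014.

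The direction of the calls depended on the scale. On the deposited TPM, without scaling, the median difference was -0.26 and 325 IDs (3.32%) were called, 1 higher and 324 lower in 2014. Around that shift 861 was at -0.81 and 10766 at -0.82 on the log2(TPM + 1) scale, and both passed (adjusted p = 0.0177 and 0.0146 in limma). The other pair, 51011 at 0.23 and 283420 at 0.17, did not (adjusted p = 0.424 and 0.565 in limma). With day of the year and no scaling, 2185 IDs (22.3%) were called, 7 higher and 2178 lower. The share of TPM in the 3 most abundant IDs, given above, averaged higher in 2014, and its part in this shift was not tested.

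**Figure D5:**
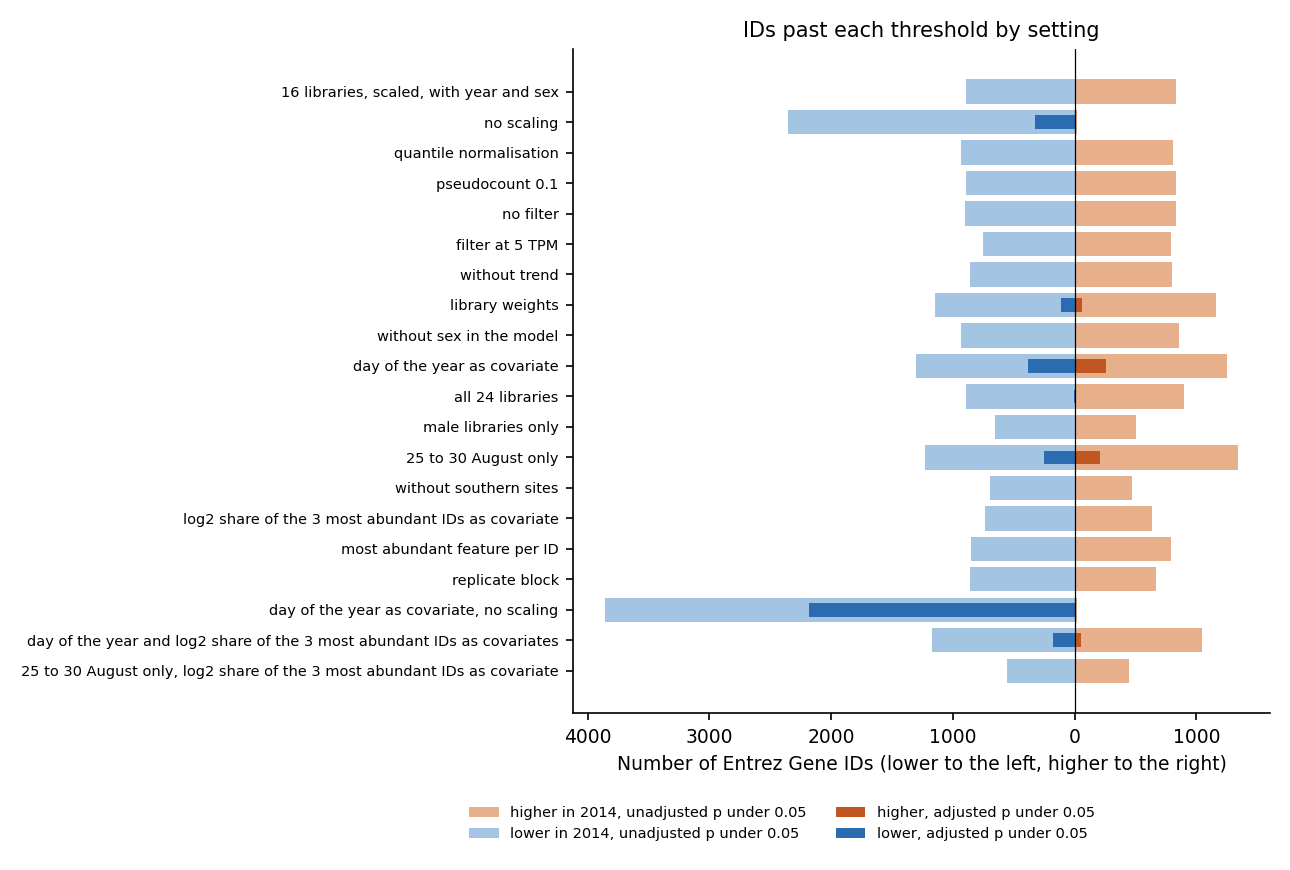
Number of Entrez Gene IDs past an unadjusted p of 0.05 (pale bars) and past an adjusted p of 0.05 in limma (dark bars), lower in 2014 to the left and higher to the right, for each way of processing. The fit of 16 scaled libraries with year and sex has 836 and 892 IDs at the unadjusted threshold and 0 at the adjusted one, and day of the year or the dates of 25 to 30 August give 635 and 459.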

How the data were processed

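RNA of whole blood was isolated with a PAXgene kit and turned into strand-directional libraries with a NEBNext kit, per the labels' protocols. Trimmomatic, Bowtie2 and RSEM 1.2.21 are named in the submitters' processing notes, without role or order, and the design text names Trinity for the assembly. The deposited values are TPM made by the authors, read as such because they are not whole and each library sums to just under 1000000. The deposited table had been filtered, since every listed feature is above 0 in at least 12 libraries.

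TPM was summed per Entrez Gene ID (1 cell holding a date in place of an ID was left out), divided by median-ratio factors over the 16 libraries and analysed as log2(TPM + 1) for IDs that reached 1 TPM in 8 libraries or more (a share of 0.5 of the libraries in smaller fits). limma 3.58.1 in R 4.3.3 (trend, robust) fitted year and sex. Single library values used exact permutation tests (scipy 1.17.1). The fit was tested on simulated data. Intervals use limma's standard error with 13 residual degrees of freedom. The p-values of limma use more, so the intervals are somewhat wider than those p-values imply. Year, sex, date and place come from the labels.

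The members and lists were chosen with earlier results of these data known. Named are the 2 IDs of smallest p per direction and the 3 most abundant IDs. Gene lists, cell type markers and a hemoglobin share had been listed by symbol, so they were not used here; the share of the 3 most abundant IDs took its place. The principal components, their relation to date, and alternatives that combine 2 choices were chosen after seeing the data.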

Additional observations from a re-analysis of the deposited data

Results flagged for a closer look

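Among 26 sets of 8 libraries (1 measure in 1 year each), 2 held an extreme library by Dixon's criterion, which chance alone meets in about 1 set of 20. Both were 2013 replicate 2, a male library of 24 August. It listed Entrez Gene ID 10766 at 71.0 scaled TPM, while the remaining libraries of 2013 ran from 40.2 to 53.9. It scored 28.73 on the third principal component, while the remaining ones ran from -17.37 to 3.94. Without it 0 IDs were called in limma, with 1365 at an unadjusted p under 0.05.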

How the results depend on the processing

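In limma, 0 IDs were called with quantile normalisation, a pseudocount of 0.1, no filter, a filter at 5 TPM, no trend, no sex term, no southern sites, the share of the 3 most abundant IDs as a covariate, the most abundant feature per ID, and every feature tested by itself. The replicate block over the 6 label numbers found in both years also gave 0 calls, but with 12 libraries and only 4 residual degrees of freedom. Deviations of same-numbered libraries correlated from -0.36 to 0.28, over 0.1 in 4 of 6 pairs and not in all, and 2 of 6 correlated best with their own number, so the numbers were not taken as pairs. Calls appeared without scaling (325), with library weights (172), with day of the year (635, or 2185 without scaling and 238 with the share), with 25 to 30 August only (459), with all 24 libraries (2, one of them 861) and in males only (1). Leaving out 1 library gave 0 to 112 calls: 112 without 2013 replicate 4, 7 without 2014 replicate 10, 1 without 2014 replicate 9 and 0 in the other 13 cases. With day of the year this range was 16 to 908, and with 25 to 30 August only 0 to 1540. The cause of these changes was not tested. The 4 named IDs kept their direction in all 60 alternatives run on sums or single features per ID, although 283420 was at 0.00 with day of the year and no scaling. They were chosen for small p on libraries that these fits largely share, so a kept direction is no independent support. The difference on component 2 lay between 15.5 and 20.2 (exact permutation p of 0.00186 to 0.0106) with each library left out of the comparison of the same scores, and that of the share between 5.06 and 10.6 percentage points (exact permutation p of 0.121 to 0.437). Because the scores were kept, the permutation p on component 2 could not exceed 0.0106 whichever library was left out. That range of p therefore does not show whether the result depends on single libraries. What depth limits is not known.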
